A study of Mus musculus with 6 samples.

Results

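The wild-type arm of a mouse stem cell study was described here through the levels of 30142 genes in sorted bone marrow cells labelled as hematopoietic stem cells (HSCs), the cells that renew all blood lineages. The members were chosen by sample and by annotation. They are the 3 wild-type microarrays of the 6 in the series, and the genes that the platform annotation names with exactly 1 symbol on a transcript cluster, the set of probes assigned to 1 transcript. Of 65956 clusters 30604 met that condition, and a gene with several clusters was represented by its brightest. The other 3 arrays, from Cdk19 knockout mice, were not used.

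Per the labels, each wild-type array holds total RNA of cells from the marrow of the tibia, femur and ilium of wild-type mice aged 6 to 8 weeks. Lineage-positive cells were depleted, the rest were stained for HSC markers, and the stained cells were sorted by flow cytometry. The labels call the 3 arrays biological replicates. They do not give the strain, the sex, the number of mice per array or the markers of the gate, and they do not call the cells resting.

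HSCs lie at the top of the blood hierarchy and pass through multipotent progenitors to lymphoid, myeloid, erythroid and megakaryocytic cells. In the mouse they are found among marrow cells that lack mature lineage markers and carry the stem cell factor receptor KIT. Most adult HSCs divide rarely, and the progenitors that follow them divide often. Cdk19, the gene removed in the rest of the series, encodes a kinase of Mediator, the complex that links transcription factors to RNA polymerase II.

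Values are the deposited log2 signals, given as a level on each array or as a mean ± SD over the 3 arrays. The percentile of a gene is its rank by mean level among the 30142 genes, from 0 for the dimmest to 100 for the brightest. Probe sets differ in signal at equal transcript number, so levels and percentiles rank array signal and not transcript copies, and no fold between genes is given. As a measure of dim signal, 1564 olfactory, vomeronasal and taste receptor genes were used, which belong to sensory cells. Their median level was 3.70, and 95% of them lay at or below 4.66. That value, called the chemosensory limit, is a reference level and not a detection call.

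Of the 30142 genes 15645 were above the limit (51.9%), and of the 19043 protein-coding genes 10363 (54.4%). The limit stood at percentile 48.1, and the median gene was at 4.78. Among the receptor genes themselves 78 were above it, the brightest being Olfr1055 at 9.82, 9.92 and 9.73 on the 3 arrays. Every count below should be read against these shares. No test was made, because 1 group is described.

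**Figure D1:**
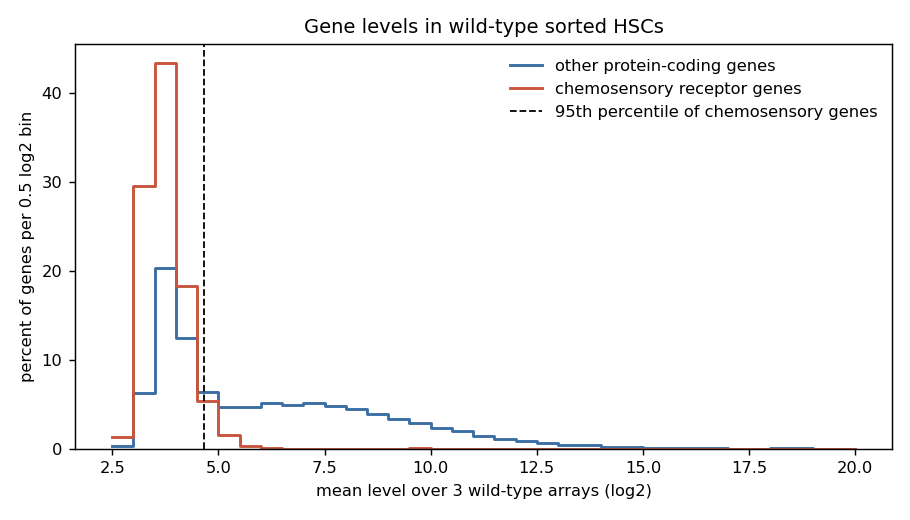
The x axis is the mean level over the 3 wild-type arrays (log2) and the y axis the percent of genes per bin of 0.5, for chemosensory receptor genes and for all other protein-coding genes. The receptor genes form 1 peak with a median of 3.70, the other genes have a peak at similar levels and a long tail to 19.93, and the dashed line marks the limit of 4.66.

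The arrays differed little from each other. Pearson correlations between pairs of arrays were 0.9986 to 0.9988 and Spearman correlations 0.9916 to 0.992, both across genes, which are not independent replicates. The median SD of a gene above the limit was 0.067, and 95% of these genes had an SD of at most 0.223. The 3 arrays lay within a range of 0.2 for 72.4% of them. Where the array values of neighbouring genes overlap, their order is not resolved. The number of arrays limits the precision of each SD.

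The 5 marker genes, of which Mpo marks myeloid progenitors and not HSCs, were all above the limit, at very different ranks. Kit gave 14.54, 14.53 and 14.53 on arrays 1, 2 and 3, which placed it at percentile 97.5. Mpo, which encodes the myeloperoxidase of myeloid granules and is transcribed early in myeloid progenitors, gave 16.93, 16.93 and 16.92, at percentile 98.9. Both genes were close to the top of the range.

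Procr, which encodes the endothelial protein C receptor found on HSCs, gave 7.33, 7.23 and 7.30, at percentile 73.8. Mecom, which encodes the HSC transcription factor EVI1, gave 7.23, 7.27 and 7.22, at percentile 73.5. Procr and Mecom overlapped in their array values, so their order is not resolved. Slamf1, which encodes the HSC marker CD150, was the dimmest of the markers at 5.79, 5.66 and 5.89, at percentile 61.0. The stem cell markers Kit, Procr, Mecom and Slamf1 were thus all above the limit, and Mpo, which is associated with progenitors, was brighter than each of them.

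Both genes of the series title were bright. Cdk19 gave 12.49, 12.45 and 12.38, at percentile 95.2. Cdkn1a, which encodes the cyclin-dependent kinase inhibitor p21, gave 15.86, 15.78 and 15.81, at percentile 98.3.

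**Figure D2:**
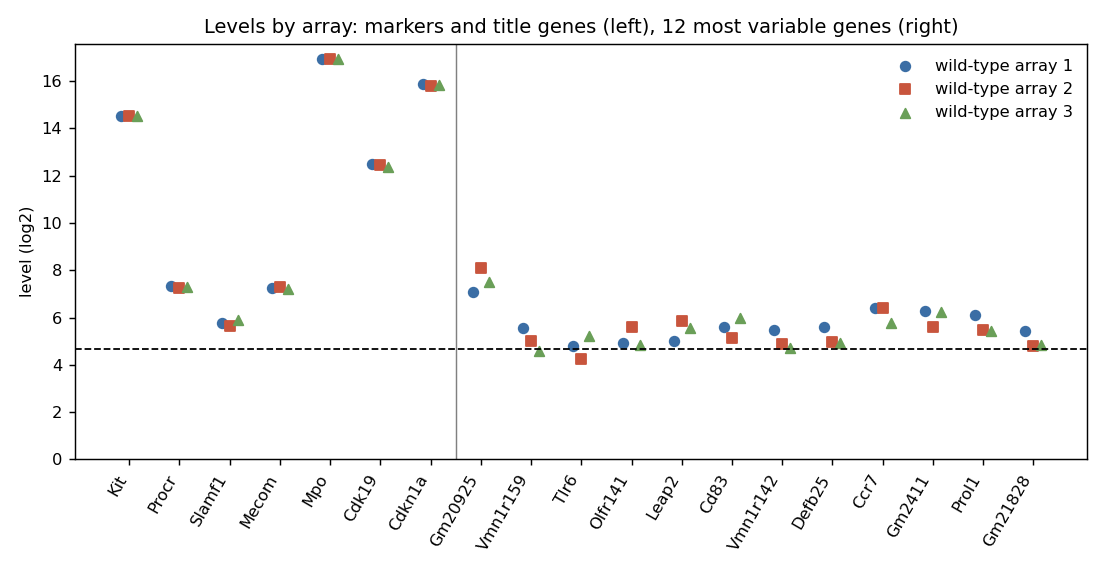
The y axis is the log2 level on each of the 3 wild-type arrays (circle, square and triangle) for the 5 markers with Cdk19 and Cdkn1a on the left, and for the 12 protein-coding genes with the largest SD above the limit on the right. The dashed line is the limit of 4.66. On the left the 3 arrays nearly coincide for each gene, from Slamf1 at 5.78 to Mpo at 16.93, and on the right the SDs are 0.362 to 0.507.

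Surface and adhesion genes of HSCs spanned almost the whole range of ranks. Of 17 measured, 14 were above the limit, with a median percentile of 67.9. Cd34, which encodes a sialomucin of stem and progenitor cells, was the brightest at 15.95, 15.92 and 16.04. Eng, which encodes the TGF-beta co-receptor endoglin, followed Kit at 12.52 ± 0.06 (SD, n = 3). Itga6 was at 8.91 ± 0.05 and Robo4, a guidance receptor that helps hold HSCs in the marrow, at 7.95 ± 0.10 (SD, n = 3 for both). Thy1 was just above the limit at 4.88 ± 0.03, while Jam3 at 4.39 ± 0.06, Cdh5 at 4.06 ± 0.03 and Clec14a at 3.48 ± 0.13 were not above it (SD, n = 3 for each). These 3 are junction and surface genes shared with endothelium. Ly6a, Cd27 and Gprc5c, also on the list, had no cluster with 1 symbol and were not analysed here.

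Transcription factors of HSCs were higher in rank than the surface markers as a list. Of 24 measured, 23 were above the limit, with a median percentile of 83.8 and 8 were above percentile 90. Etv6 gave 15.10, 15.13 and 15.12. It encodes an ETS factor needed for adult HSC survival. Fli1 and Erg, encoding a further pair of ETS factors of the stem cell network, were at 13.29 ± 0.03 and 12.03 ± 0.05 (SD, n = 3). Meis1, a HOX cofactor, was at 12.10 ± 0.04, and its arrays overlapped those of Erg.

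Runx1, required for the emergence of HSCs in the embryo, was at 11.44 ± 0.02 (SD, n = 3). Lmo2 was at 10.80 ± 0.05 and Tal1 at 7.02 ± 0.08 (SD, n = 3). These encode partners in 1 DNA-binding complex, so the list holds members of the same complex at quite different signal. Gata2 and Hlf, factors that keep HSCs in their state, were at 9.52 ± 0.07 and 9.69 ± 0.05 (SD, n = 3). At the bottom were Gfi1b at 6.04 ± 0.04, Tcf15 at 5.53 ± 0.09 and Hoxa10 at 5.18 ± 0.11 (SD, n = 3). Hoxb5 was the only measured factor of the list not above the limit, at 4.05, 3.96 and 4.04.

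Hox genes specify position along the body axis, and several of the A cluster are active in HSCs. Of 33 measured Hox genes of all clusters, 6 were above the limit. The brightest were Hoxa6 at 8.71, 8.89 and 8.94 and Hoxa5 at 8.33, 8.65 and 8.52. The dimmest, Hoxc10, was at 2.90 ± 0.08 (SD, n = 3), and the median Hox gene was at percentile 20.1. Hoxa9, Hoxa7 and Hoxb4 were not analysed here.

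Genes listed as markers of multipotent progenitors were all above the limit, 13 of 13, with the highest median percentile of the 14 lineage lists at 88.2. Many of them are shared with myeloid lists below. Mpo, Csf3r, Ctsg and Prtn3 are also in the neutrophil list, and Flt3, Csf1r and Irf8 in the monocyte list. The rank of the list therefore does not separate multipotent from myeloid progenitor transcripts. After Mpo came Flt3, the receptor of the FLT3 ligand that marks progenitors with lymphoid potential, at 14.52, 14.53 and 14.49. Csf3r, the receptor of granulocyte colony-stimulating factor, gave 12.45, 12.44 and 12.46. Cd48, which encodes a surface protein that is low on the most primitive HSCs and present on progenitors, gave 11.31, 11.29 and 11.30. The array values of Kit and Flt3 overlapped.

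Granule protease genes of early myeloid progenitors were also bright. Ctsg was at 10.55 ± 0.15, Elane at 10.53 ± 0.10 and Prtn3 at 9.70 ± 0.09 (SD, n = 3 for each). The arrays of Ctsg and Elane overlapped. The lowest members of the progenitor list were Fcgr3 at 5.81 ± 0.08, Ms4a3 at 6.49 ± 0.14 and Cd52 at 7.14 ± 0.08 (SD, n = 3). In a bulk sample a small number of cells with much of a transcript and many cells with little of it give the same signal, so these levels do not tell stem cells with progenitor transcripts from progenitors within the gate.

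Genes that prepare the lymphoid program were bright in the same samples. Of 10 measured lymphoid-primed markers 9 were above the limit, with a median percentile of 83.9. Dntt, which encodes the polymerase that adds bases to antigen receptor joints, gave 12.77, 12.68 and 12.78. Ikzf1, which encodes the lymphoid factor Ikaros, gave 12.72, 12.73 and 12.80, overlapping Dntt. Satb1 was at 10.12 ± 0.07 and the interleukin-7 receptor gene Il7r at 6.37 ± 0.07 (SD, n = 3). Ccr9 at 4.85 ± 0.03 was barely above the limit, and the recombinase gene Rag2 at 4.31, 4.19 and 4.19 was not above it.

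Of 12 measured B cell markers 6 were above the limit, a share close to the 54.4% of protein-coding genes, and of 16 T and NK cell markers 4 were. Ighm, the heavy chain constant gene whose sterile transcript precedes rearrangement, was the highest of the B cell genes at 11.78, 11.79 and 11.72. The signalling chain genes of the B cell receptor, Cd79b and Cd79a, followed it on either side of Ebf1, at 7.40 ± 0.13 and 5.56 ± 0.08 (SD, n = 3). The surrogate light chain genes Vpreb1 and Vpreb2 were just above the limit at 4.87 ± 0.03 and 4.76 ± 0.12, while Vpreb3 at 4.60 ± 0.22 and Igll1 at 4.39 ± 0.13 were not above it (SD, n = 3). Pax5, the factor that commits cells to the B lineage, was at 4.34 ± 0.06, Cd22 at 3.63 ± 0.08 and Ms4a1, which encodes CD20, at 3.59 ± 0.07 (SD, n = 3). Ebf1, which acts before Pax5, was above the limit at 5.81 ± 0.04 (SD, n = 3).

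In the T and NK list, Nkg7, which encodes a granule membrane protein of cytotoxic cells, stood alone at 12.86, 12.58 and 12.67. Cd4 was at 6.29 ± 0.05 (SD, n = 3). Genes of T cell receptor components were not above the limit, Cd3e at 3.72 ± 0.09 and Cd3d at 4.66 ± 0.12, level with it (SD, n = 3). Of the co-receptor genes, Cd8a at 3.83 ± 0.07 (SD, n = 3) was not above the limit, while Cd4 was. The NK receptor gene Ncr1 was at 3.80 ± 0.04 (SD, n = 3).

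Of 18 neutrophil and granule genes 13 were above the limit, with a median percentile of 64.2. Primary granule genes, made first in the promyelocyte, were among the highest, as the values of Mpo, Ctsg, Elane and Prtn3 show. The receptor gene Csf3r, at 12.45, lay below Mpo and above the rest of them. The calprotectin genes S100a8 gave 8.83, 8.71 and 8.70, and S100a9 6.56, 6.35 and 6.58. Genes of later granules covered a range from well above the limit to below it. Ngp, a granule protein gene of maturing neutrophils, gave 6.94, 6.84 and 6.79, and Lcn2 was at 5.14 ± 0.04 (SD, n = 3). Camp was at 5.11 ± 0.04, Ltf at 4.55 ± 0.03, Mmp8 at 3.76 ± 0.12 and Mmp9 at 3.71 on all 3 arrays, and the later-stage factor gene Cebpe was at 3.80 ± 0.15 (SD, n = 3).

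Of 18 monocyte, macrophage and dendritic markers 13 were above the limit as well. Apart from Flt3 the highest were Ly6c2 at 11.85, 11.35 and 11.62, the lysozyme gene Lyz2 at 11.37 ± 0.04 and Klf4 at 10.07 ± 0.09 (SD, n = 3). Ly6c2 had a wider spread than most bright genes. Macrophage genes fell on both sides of the limit. Cd68, which encodes a lysosomal membrane protein of macrophages, gave 9.98, 9.91 and 9.99, at percentile 89.2, and the adhesion gene Vcam1 was just above the limit at 4.77 ± 0.07 (SD, n = 3). Not above it were Adgre1 at 4.21 ± 0.10, C1qb at 4.04 ± 0.14, C1qa at 3.99 ± 0.09, Fcgr1 at 4.16 ± 0.01 and Mertk at 3.93 ± 0.04 (SD, n = 3 for each).

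Of 14 mast cell, basophil and eosinophil markers 7 were above the limit. Cpa3, a mast cell carboxypeptidase that is transcribed early in progenitors, was bright at 12.62, 12.46 and 12.49. The eosinophil granule gene Prg2 was at 8.79 ± 0.17 and Epx at 6.39 ± 0.05 (SD, n = 3). The receptor gene of mature mast cells and basophils, Fcer1a, was at 3.55 ± 0.06, and the mast cell chymase gene Cma1 at 3.81 ± 0.03 (SD, n = 3).

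HSCs share surface receptors with megakaryocytes, the platelet-forming cells. Of 13 measured megakaryocyte markers 9 were above the limit, with a median percentile of 62.2 and 0 above percentile 90. The thrombin receptor gene F2r was the highest at 9.35, 9.25 and 9.34. Itga2b was at 7.27 ± 0.03 and the platelet adhesion gene Selp at 7.21 ± 0.03 (SD, n = 3). Pf4, a platelet chemokine, was at 6.12 ± 0.10 and Vwf, the von Willebrand factor gene used to mark platelet-biased HSCs, at 5.16 ± 0.03 (SD, n = 3). Other platelet genes lay on both sides of the limit. Nrgn was at 8.13 ± 0.01, and the platelet glycoprotein genes Gp9 and Gp5 were at 5.91 ± 0.10 and 5.65 ± 0.15 (SD, n = 3). The 4 not above it were Ppbp at 3.68 ± 0.02, Gp6 at 3.83 ± 0.04, Tubb1 at 4.34 ± 0.06 and Treml1 at 4.35 ± 0.03 (SD, n = 3).

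Of 11 measured erythroid markers 6 were above the limit (54.5%), beside 54.4% of protein-coding genes. The carbonic anhydrase genes Car2 and Car1 were at 13.63 ± 0.02 and 8.34 ± 0.03, and the transferrin receptor gene Tfrc at 9.33 ± 0.05 (SD, n = 3 for each). These genes are not confined to red cells. The factors that define the lineage were at the limit or under it. Gata1 gave 4.89, 4.68 and 4.64, on both sides of the limit, and Klf1 was at 4.39 ± 0.07 (SD, n = 3). The erythropoietin receptor gene Epor was at 4.47 ± 0.13, and Slc4a1, which encodes the band 3 anion exchanger, at 3.86 ± 0.01 (SD, n = 3). The hemoglobin genes were not analysed here.

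Genes of cells that surround HSCs in the marrow were mostly not above the limit. Of 13 endothelial markers 5 were above it, and of 15 stroma and bone markers 1. The endothelial genes above it, Pecam1 at 10.02 ± 0.01, Tie1 at 8.13 ± 0.05, Emcn at 8.07 ± 0.02, Tek at 6.35 ± 0.04 and Vwf (SD, n = 3), are also known from HSCs. Kdr, which encodes the main VEGF receptor of endothelium, was at 4.01 ± 0.02, Plvap at 3.91 ± 0.06 and Cdh5 at 4.06 (SD, n = 3).

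The niche factors that stroma supplies to HSCs were low in the sorted cells. Kitl, which encodes the KIT ligand, was at 3.89 ± 0.04 (SD, n = 3), and Cxcl12, which encodes the ligand of CXCR4, gave 3.91, 3.89 and 3.89. Col1a1 at 4.58 ± 0.02 and Bglap, which encodes osteocalcin, at 4.47 ± 0.10 were the nearest to the limit of the rest (SD, n = 3). Pdgfrb, the receptor gene of pericytes, was the exception at 10.52, 10.65 and 10.60.

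Of 26 genes of other organs 3 were above the limit. These were Tnnt2 at 5.37 ± 0.03, Actn2 at 5.29 ± 0.03 and Mbp at 5.07 ± 0.01 (SD, n = 3). The liver genes Alb at 3.92 ± 0.11 and Cyp2e1 at 3.56 ± 0.01 and the lung gene Sftpc at 3.63 ± 0.16 lay at the level of the receptor genes (SD, n = 3). Of 48 keratin genes 3 were above the limit, Krt18 the highest at 8.00 ± 0.02 (SD, n = 3).

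**Figure D3:**
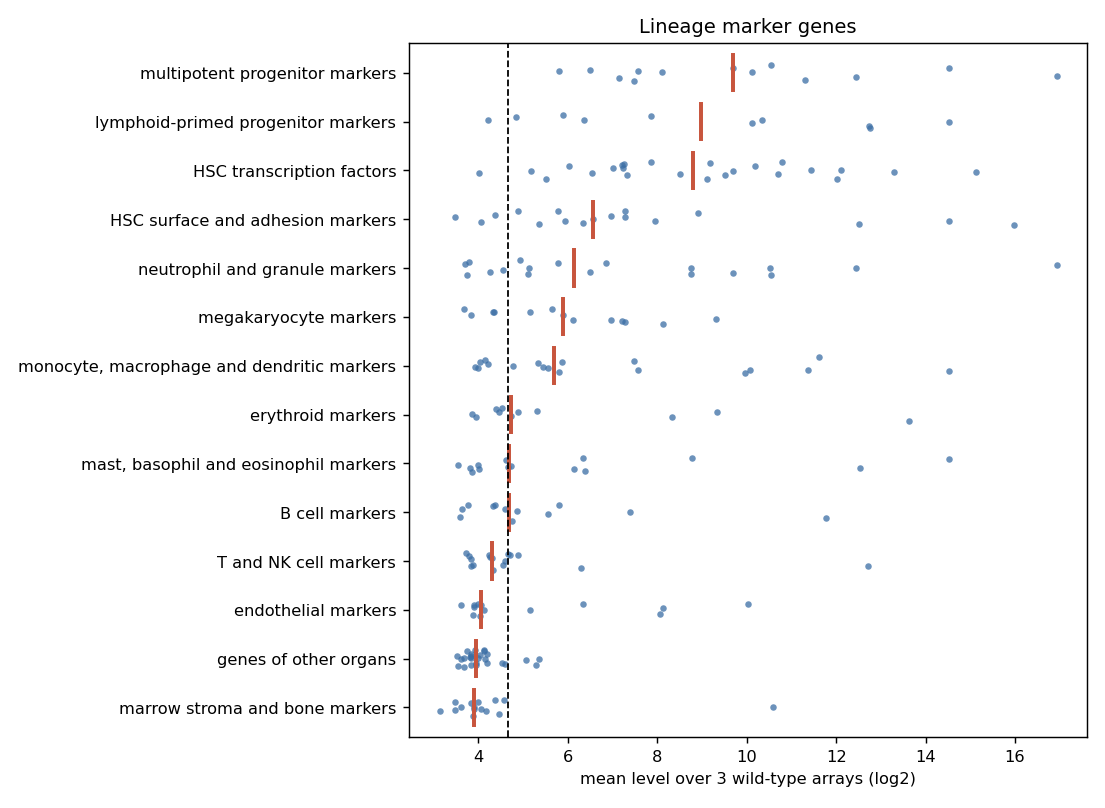
Each point is 1 measured gene of a lineage list, placed by its mean level over the 3 wild-type arrays (log2, x axis), with a red bar at the list's median and a dashed line at the limit of 4.66. Progenitor and HSC factor lists lie to the right, with all 13 progenitor markers above the limit, and stroma, bone and other-organ genes cluster to the left, with Pdgfrb at 10.59 the exception among the stromal genes.

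Receptors for cytokines and niche signals were well represented. Of 28 measured, 25 were above the limit, with a median percentile of 86.0. After Kit, Flt3 and Csf3r came Cxcr4, the receptor that keeps HSCs in the marrow, at 12.44, 12.25 and 12.48, and Notch2 at 12.18 ± 0.05 (SD, n = 3). The interferon gamma receptor gene Ifngr1 was at 11.32 ± 0.05 (SD, n = 3). Tgfbr1 and Tgfbr2, whose ligand TGF-beta holds HSCs out of cycle, were at 9.21 ± 0.01 and 10.12 ± 0.11 (SD, n = 3). Receptors for leptin and for bone morphogenetic protein were low, Lepr at 3.85 ± 0.05 and Bmpr1a at 3.70 ± 0.01 (SD, n = 3). Fzd4, a Wnt receptor gene, had the largest SD of the list at 5.03, 5.46 and 4.87.

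Adhesion genes followed a similar pattern, with 23 of 25 above the limit and a median percentile of 84.6. Cd47, which encodes the signal that protects cells from phagocytosis, gave 15.96, 15.95 and 15.96. Its arrays lay between those of Cd34. The small GTPase genes Rac2, Cdc42 and Rhoa, which drive adhesion and migration, were at 14.23 ± 0.09, 12.55 ± 0.05 and 12.09 ± 0.04 (SD, n = 3). Rac2 is the form particular to blood cells. Cd44, a hyaluronan receptor gene, was at 12.80 ± 0.08 (SD, n = 3). Of the integrin subunits that bind VCAM1 in the marrow, Itgb1 was at 11.46 ± 0.04 and Itga4 at 10.71 ± 0.04 (SD, n = 3).

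Genes linked to quiescence were all above the limit, 24 of 24, with a median percentile of 89.9. Nr4a1, Klf6, Egr1, Klf2, Btg2 and Klf4 are also in the list of immediate early genes below, so these lists are not independent. Beside Cdkn1a the highest were Nr4a1, a nuclear receptor gene that restrains HSC division, at 18.71, 18.70 and 18.71, and Klf6 at 16.63 ± 0.02 (SD, n = 3). Egr1, whose loss releases HSCs into cycle, was at 13.88 ± 0.02 and Txnip at 13.87 ± 0.08 (SD, n = 3), with overlapping arrays. The inhibitor gene Cdkn1b was at 9.31 ± 0.07 (SD, n = 3). Cdkn1c, which encodes p57, the inhibitor most tied to HSC quiescence, was among the lowest at 5.09, 5.13 and 5.20. Foxo3 gave 9.91, 10.04 and 10.04, and Foxo1 7.52, 7.45 and 7.30.

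Cell cycle genes were above the limit to the same extent. All 28 measured G1/S and replication genes and all 28 measured G2/M and mitosis genes were, with median percentiles of 85.0 and 87.3. The early cell cycle kinase gene Cdk6, whose product controls how fast HSCs leave quiescence, gave 15.64, 15.63 and 15.65. Pcna, the sliding clamp of replication, gave 15.11, 15.00 and 14.99. Cyclin genes covered a range, with Ccnd2 at 12.49 ± 0.01 and Ccne1 at 5.94 ± 0.08 (SD, n = 3).

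Mki67, the gene of the proliferation antigen Ki-67, gave 15.86, 15.84 and 15.84, at percentile 98.3. Its arrays overlapped those of Cdkn1a, so a main marker of cycling and a main inhibitor of it stood at the same rank. Top2a was at 13.85 ± 0.06, the spindle motor gene Kif11 at 13.19 ± 0.03 and Ccna2 at 11.23 ± 0.01 (SD, n = 3). The lowest of the list were Cdc25c at 6.74 ± 0.14 and Birc5 at 5.62 ± 0.08 (SD, n = 3). How many of the sorted cells carried these transcripts cannot be told from a bulk signal.

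Immediate early genes, which respond within minutes to growth factors and stress, contributed many of the brightest genes on the arrays. Of 30 measured, 28 were above the limit and 20 above percentile 90, with a median percentile of 95.4. After Nr4a1 came Dusp1, a phosphatase gene that ends MAP kinase signalling, at 18.50 on all 3 arrays. Fosb gave 18.25, 18.34 and 18.36, and Fos 18.01, 18.01 and 18.05. Jun, which encodes the partner of FOS in AP-1, was at 16.76 ± 0.04, and Zfp36, which encodes an RNA-binding protein that shortens the life of inflammatory transcripts, at 16.67 ± 0.11 (SD, n = 3). Nr4a1, Dusp1, Fosb, Fos, Jun and Klf6 were 6 of the 25 brightest protein-coding genes outside the gene families named below. Fosl1 at 4.47 ± 0.19 and Ccn1 at 4.10 ± 0.15 were not above the limit (SD, n = 3).

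The promoters of the 4 brightest immediate early genes and the 4 brightest mitosis genes with a promoter in the table are printed because the lists differ in the motifs they hold. Each is the 250 bases before the RefSeq start of the gene on its coding strand (build GRCm38.p6). Capitals mark matches on either strand to the GC box written GGGCGG, to the motif written CCAAT, to the TATA box written TATAAA, and to the cyclic AMP response element written TGACGTCA. A match on the opposite strand shows as its reverse complement. Nr4a1 is at chr15:101266596-101266845 on the plus strand, Dusp1 at chr17:26508473-26508722 on the minus strand, Fosb at chr7:19310046-19310295 on the minus strand and Fos at chr12:85473640-85473889 on the plus strand. Mki67 is at chr7:135716380-135716629 on the minus strand, Top2a at chr11:99024190-99024439 on the minus strand, Kif11 at chr19:37376132-37376381 on the plus strand and Kif23 at chr9:61946800-61947049 on the minus strand.
Nr4a1 promoter: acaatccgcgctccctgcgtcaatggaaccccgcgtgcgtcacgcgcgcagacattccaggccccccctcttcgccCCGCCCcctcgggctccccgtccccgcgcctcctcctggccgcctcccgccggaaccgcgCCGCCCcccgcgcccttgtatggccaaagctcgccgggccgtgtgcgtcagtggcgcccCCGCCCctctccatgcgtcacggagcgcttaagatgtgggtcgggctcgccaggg
Dusp1 promoter: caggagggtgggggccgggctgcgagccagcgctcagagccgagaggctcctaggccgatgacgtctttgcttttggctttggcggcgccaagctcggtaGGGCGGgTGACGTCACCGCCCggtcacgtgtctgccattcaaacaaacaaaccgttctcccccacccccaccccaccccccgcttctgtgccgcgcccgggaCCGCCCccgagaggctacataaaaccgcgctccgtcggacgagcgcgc
Fosb promoter: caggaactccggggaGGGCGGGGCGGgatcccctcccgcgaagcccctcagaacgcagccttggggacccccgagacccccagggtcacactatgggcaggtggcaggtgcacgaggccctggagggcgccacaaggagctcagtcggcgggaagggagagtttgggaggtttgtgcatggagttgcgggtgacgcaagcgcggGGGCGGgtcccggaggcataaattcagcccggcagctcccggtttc
Fos promoter: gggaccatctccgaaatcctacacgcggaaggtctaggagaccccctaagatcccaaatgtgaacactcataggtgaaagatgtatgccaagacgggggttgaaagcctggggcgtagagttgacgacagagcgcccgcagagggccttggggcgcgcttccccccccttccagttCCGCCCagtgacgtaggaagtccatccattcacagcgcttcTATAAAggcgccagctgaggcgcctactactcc
Mki67 promoter: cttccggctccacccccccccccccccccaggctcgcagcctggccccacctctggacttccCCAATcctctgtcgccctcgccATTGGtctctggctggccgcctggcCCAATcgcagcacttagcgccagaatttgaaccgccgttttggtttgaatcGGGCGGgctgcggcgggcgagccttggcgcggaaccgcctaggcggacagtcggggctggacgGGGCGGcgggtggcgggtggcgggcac
Top2a promoter: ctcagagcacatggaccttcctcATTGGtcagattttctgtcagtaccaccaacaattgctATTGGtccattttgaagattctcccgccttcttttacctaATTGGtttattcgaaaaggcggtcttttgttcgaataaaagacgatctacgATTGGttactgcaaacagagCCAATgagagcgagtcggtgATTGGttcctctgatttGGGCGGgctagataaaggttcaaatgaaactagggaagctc
Kif11 promoter: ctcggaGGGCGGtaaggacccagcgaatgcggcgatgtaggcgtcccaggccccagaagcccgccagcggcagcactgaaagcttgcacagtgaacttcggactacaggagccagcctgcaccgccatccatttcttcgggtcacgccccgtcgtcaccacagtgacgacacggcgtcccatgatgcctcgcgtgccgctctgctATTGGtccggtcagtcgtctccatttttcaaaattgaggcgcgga
Kif23 promoter: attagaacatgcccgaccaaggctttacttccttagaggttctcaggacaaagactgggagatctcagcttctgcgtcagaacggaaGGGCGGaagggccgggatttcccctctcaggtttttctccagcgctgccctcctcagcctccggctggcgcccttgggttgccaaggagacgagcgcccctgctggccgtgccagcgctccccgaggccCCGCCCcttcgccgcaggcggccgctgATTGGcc

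In these windows the Dusp1 promoter holds TGACGTCA from base -143, between a pair of GC boxes, where base -1 is the last before the start. Fos holds TATAAA from base -33. Nr4a1 holds 3 GC boxes and Fosb 3, of which 2 overlap. Top2a holds 6 CCAAT boxes on the 2 strands together and Mki67 holds 3, while Kif11 and Kif23 hold 1 each.

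Over whole lists, counted from 250 bases before to 50 after the start, CCAAT was present in 19 of 23 promoters of measured G2/M genes (82.6%), beside 38.6% of all 15432 promoters of protein-coding genes. GGGCGG was present in 18 of the same 23 and in 20 of 25 immediate early promoters, beside 48.0% of all promoters. CCAAT was present in 11 of the 25 immediate early promoters (44.0%). TGACGTCA was present in 3 of 25 immediate early promoters, those of Dusp1, Btg2 and Ppp1r15a, beside 2.36% of all. It was also in 2 of 23 G2/M promoters and 2 of 15 tricarboxylic acid cycle promoters, so it did not set the immediate early list apart. Several lineage lists had lower values. HSC surface markers had GGGCGG in 3 of 11 promoters and a median CpG ratio of 0.266, multipotent progenitor markers had it in 1 of 11, and T and NK cell markers in 1 of 13 with a ratio of 0.129. HSC transcription factors had it in 11 of 17 and a ratio of 0.795. A match is a description of the letters and not a bound site.

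The CpG ratio is the number of CG pairs over the number that the C and G content would give. It followed the level across all promoters. In 5 quintiles of level, each of 3086 or 3087 genes, its median was 0.24 in the dimmest, then 0.304, 0.59 and 0.773, and 0.834 in the brightest. GGGCGG was present in 23.6% of promoters in the dimmest quintile and 68.9% in the brightest. CCGGAAG, a motif of ETS factors, went from 2.49% to 21.4%, and CACGTG, an E-box, from 4.79% to 11.5%.

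TATAAA ran the other way, from 22.7% in the dimmest quintile to 6.29% in the brightest. CCAAT hardly differed, at 38.3% and 39.0%. The palindrome TGACGTCA was rare throughout but rose with level, from 1.13% in the dimmest quintile to 3.99% in the brightest. Without the chemosensory genes the CpG ratio still went from 0.318 in the dimmest quintile to 0.835 in the brightest, and TATAAA from 17.6% to 6.62%. The median gene span was 9.86 kb in the dimmest quintile and 29.6 kb in the brightest.

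**Figure D4:**
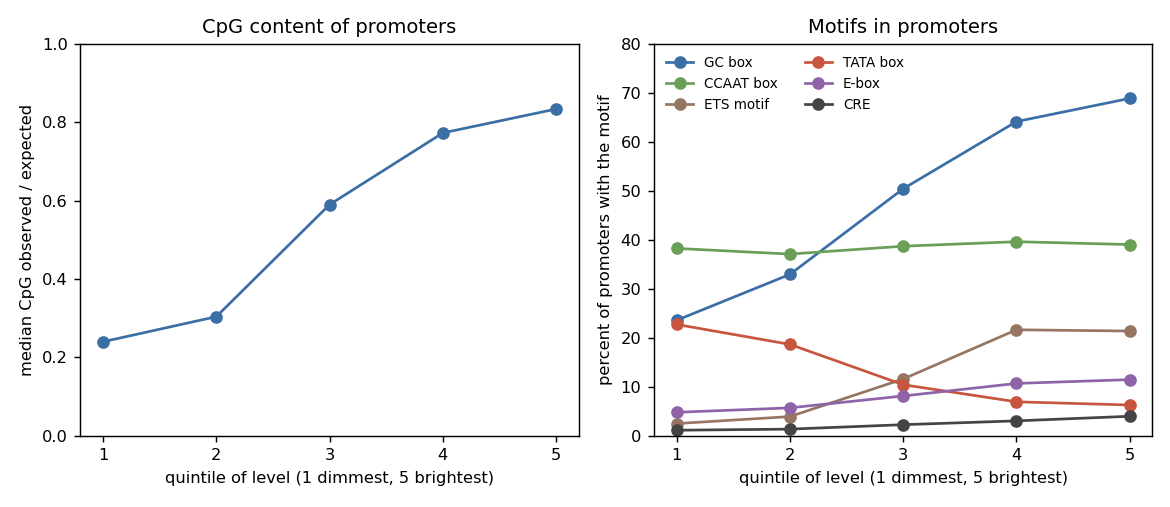
The x axis is the quintile of mean level of 15432 protein-coding genes, from the dimmest (1) to the brightest (5); the left panel plots the median CpG ratio and the right panel the percent of promoters with each motif on either strand. The CpG ratio climbs from 0.24 to 0.834. GC boxes, ETS motifs, E-boxes and the rare cyclic AMP response elements become more frequent, TATA boxes become less frequent, and CCAAT boxes stay near 38.6%.

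The machinery of protein synthesis held the highest median rank of the function lists. All 22 measured translation factors were above the limit and 21 were above percentile 90, with a median percentile of 96.3. Eef1a1, which brings aminoacyl-tRNA to the ribosome, gave 19.61 on each of the 3 arrays. Pabpc1, the poly(A)-binding protein gene, gave the same value on each, at percentile 99.8, and Eef2 gave 18.54, 18.51 and 18.51. The lowest was Eef1d at 7.40 ± 0.06 (SD, n = 3). Of 40 measured ribosomal protein genes 37 were above the limit, Rpl4 the highest at 18.87 on each array and the testis-linked copy Rpl39l the lowest at 3.69 ± 0.01 (SD, n = 3).

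Values that do not differ between arrays were frequent at the top of the scale. Of the 484 genes with a level of 16 or more 8.88% gave the same value on all 3 arrays, beside 0.384% of the 4682 genes from 8 to 12. On every array 83 clusters lay within 0.2 of the largest value, 19.93. An SD of 0 for Eef1a1, Pabpc1 or Dusp1 therefore does not measure their spread.

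Energy metabolism was represented by nearly all of its enzymes. Of 18 glycolytic genes 17 were above the limit (median percentile 85.1), and of 16 tricarboxylic acid cycle genes all 16 (median percentile 89.4). Gapdh gave 17.13 on each array, Pkm was at 12.41 ± 0.06 and Ldha at 11.84 ± 0.05 (SD, n = 3). The genes of the kinases that inhibit pyruvate dehydrogenase, a step tied to the glycolytic state of HSCs, ranked low within the glycolytic list. Pdk1 was at 7.68 ± 0.02, Pdk2 at 7.33 ± 0.07 and Pdk4, not above the limit, at 4.25 ± 0.04 (SD, n = 3). Citrate synthase (Cs) was at 12.71 ± 0.02 and Idh3g at 12.89 ± 0.07 (SD, n = 3). Of 79 nuclear oxidative phosphorylation genes 75 were above the limit, with a median percentile of 80.3.

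Genes of the hypoxia response and of redox control were above the limit in 19 of 21 cases, with a median percentile of 90.8. The ferritin chain genes Fth1 and Ftl1 were at 15.82 ± 0.05 and 14.14 ± 0.04, Gpx1 at 15.39 ± 0.09 and catalase (Cat) at 13.89 ± 0.02 (SD, n = 3 for each). Hif1a, the oxygen-sensing factor of HSCs, was at 10.35, 10.52 and 10.63. Its relative Epas1 was not above the limit at 3.83, 3.80 and 3.81. Nqo1, a target of NRF2, was not above it either at 4.54 ± 0.11, and Hmox1 was level with it at 4.72 ± 0.12 (SD, n = 3).

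Chaperone genes were all above the limit, 18 of 18 (median percentile 93.4), and 37 of 38 proteasome genes were (85.8). Calr was at 16.02 ± 0.08 and Hsp90aa1 at 15.96 ± 0.06 (SD, n = 3). Heat-inducible members were found at different ranks. Hsph1 was at 9.78 ± 0.06 and Dnajb1 at 9.44 ± 0.05, while the lowest of the list were Hspa1a at 6.36 ± 0.14, Bag3 at 6.22 ± 0.11 and Hspb1 at 4.95 ± 0.09 (SD, n = 3). Hspa8 stood at 19.93 on each array, but its brightest cluster lies on chromosome 1 while the gene lies on chromosome 9, so that its value is uncertain. The same doubt holds for Pgk1, whose own X chromosome cluster was at 11.44.

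Genes of NF-kB signalling and inflammation held both extremes. Of 26 measured, 22 were above the limit, with a median percentile of 80.6. Tnfaip3, which encodes the NF-kB inhibitor A20, gave 15.50, 15.45 and 15.50. Ccl3, a chemokine gene, gave 15.31, 15.28 and 15.26, and Rel 14.99, 15.03 and 14.99. The inhibitor gene Nfkbia and the subunit gene Rela overlapped at 13.87 (SD 0.06 and 0.02, n = 3). Cytokine and chemokine genes were split. Tnf, which encodes the tumour necrosis factor, gave 11.08, 11.21 and 11.03, and the neutrophil chemokine gene Cxcl2 gave 11.49, 11.57 and 11.65. Il1b at 4.56 ± 0.02, Il6 at 3.75 ± 0.06, Il1a at 3.71 ± 0.14 and Cxcl1 at 3.67 ± 0.12 were not above the limit (SD, n = 3).

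All 28 measured interferon response genes were above the limit, with a median percentile of 80.5. Ifitm3 and Ifitm2, which encode membrane proteins that block virus entry and are typical of stem cells, were at 12.87 ± 0.16 and 12.79 ± 0.18 (SD, n = 3), with overlapping arrays. The receptor genes Ifngr1 and Ifnar2 were at 11.32 and 11.02. Interferon-inducible genes ran from high to low in the list. Oas2 was at 9.51 ± 0.04, Gbp2 at 8.60 ± 0.10, Oas1a at 8.48 ± 0.12, Irf7 at 7.56 ± 0.09 and Rsad2 at 7.41 ± 0.04 (SD, n = 3). Isg15 at 5.10 ± 0.03, Ifit3 at 4.80 ± 0.07 and Mx1 at 4.67 ± 0.09 were the lowest, and Mx1 was level with the limit (SD, n = 3).

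Genes of the p53 pathway ranked from near the top to below the limit, with 27 of 29 above it and a median percentile of 76.2. After Cdkn1a the highest were Plk2 at 12.82 ± 0.04, Btg2 at 11.60 ± 0.08, and the inhibitors of p53 Mdm4 and Mdm2 at 10.64 ± 0.08 and 10.48 ± 0.01 (SD, n = 3). The proapoptotic targets were much lower in rank than Cdkn1a, with Bbc3 (PUMA) at 6.10 ± 0.02 and Pmaip1 (NOXA) at 5.35 ± 0.18 (SD, n = 3). Phlda3 at 4.29 ± 0.13 and Eda2r at 4.06 ± 0.07 were not above the limit (SD, n = 3). Trp53 and Bax were not analysed here. The cluster used for Fas, at 6.61, lies on chromosome 17 while the gene lies on chromosome 19. The chromosome 19 cluster of Fas was at 3.89, so Fas counts among the 27 only through the other cluster.

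Of 21 apoptosis genes 17 were above the limit, with a median percentile of 78.4. Mcl1, the survival factor on which HSCs depend, gave 14.00, 13.96 and 14.04. Bcl2 was at 9.32 ± 0.02 and Bcl2l1 at 6.66 ± 0.06 (SD, n = 3). The antagonist gene Bcl2l11 (BIM) was at 10.17 ± 0.03 (SD, n = 3).

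All 7 genes of the Mediator kinase module and all 25 measured genes of the core complex were above the limit, with median percentiles of 92.6 and 77.5. Med13 and Med13l, whose products tie the module to the core, were the highest of the module at 12.84 ± 0.03 and 12.76 ± 0.10 (SD, n = 3), with overlapping arrays. Cdk19 was next at 12.44 ± 0.06, then Med12 at 11.03 ± 0.01 (SD, n = 3). Its paralogue Cdk8 gave 8.56, 8.67 and 8.71, at percentile 83.0, and the shared cyclin gene Ccnc gave 7.32, 7.30 and 7.24, at percentile 73.8. As these are different probe sets, the signals do not show which kinase has more transcript.

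In the core, Med14, the backbone of the complex, was at 12.60 ± 0.02 and Med1, the contact of nuclear receptors, at 10.62 ± 0.07 (SD, n = 3). The lowest were Med9 at 5.84 ± 0.04 and Med18 at 5.33 ± 0.13 (SD, n = 3). All 11 measured RNA polymerase II subunits were above the limit, from Polr2a at 13.09 ± 0.09 to Polr2i at 5.03 ± 0.02 (SD, n = 3).

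**Figure D5:**
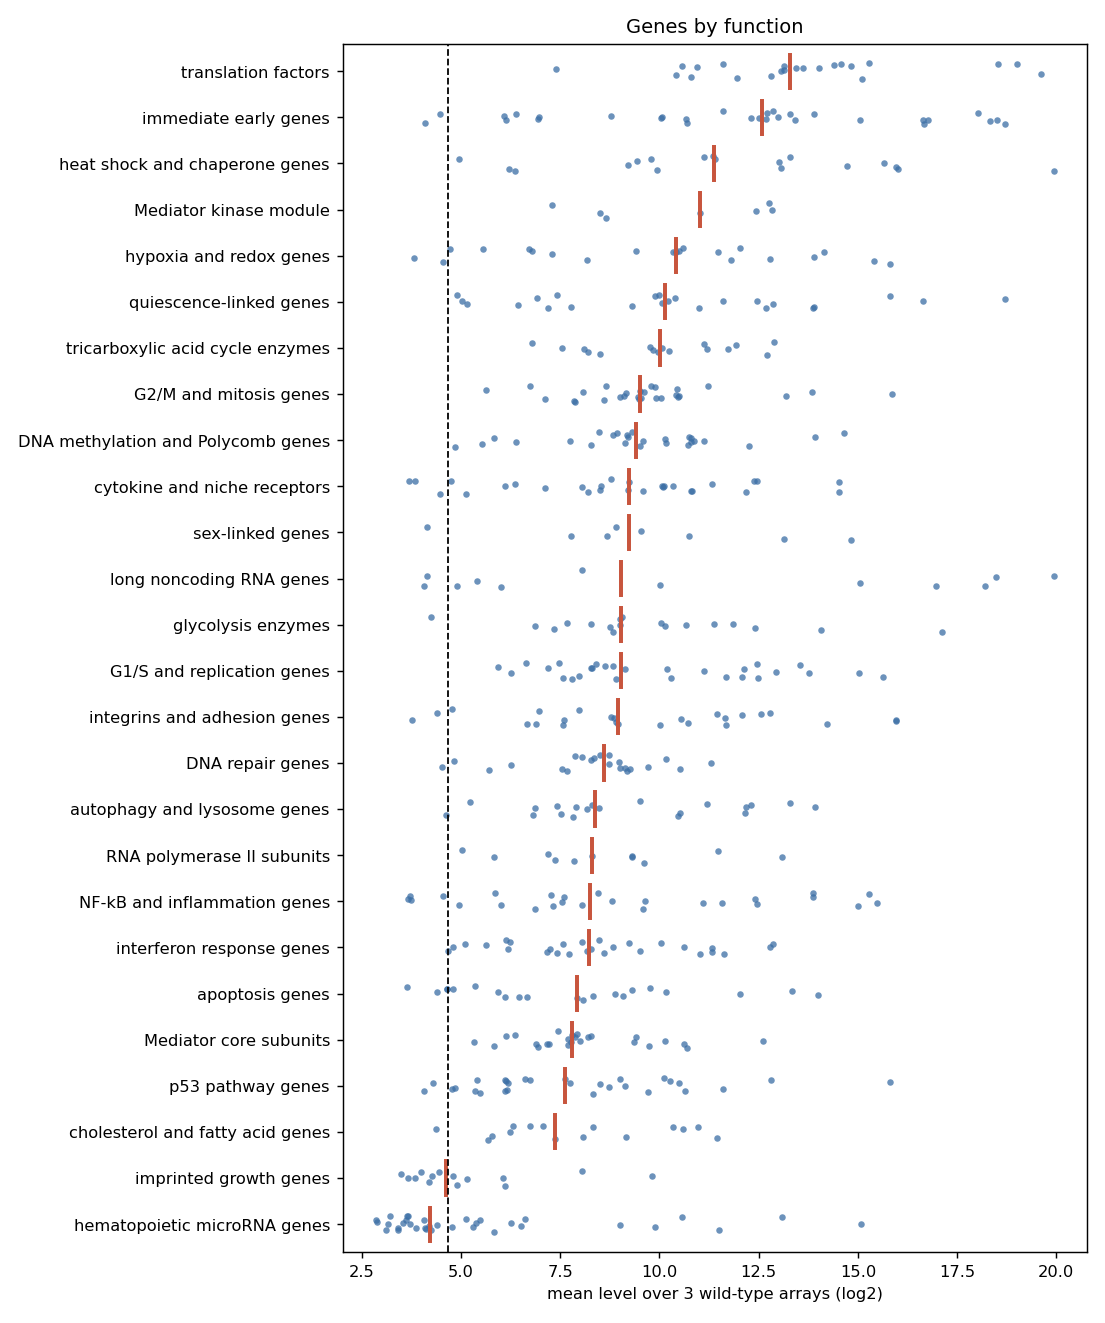
Each point is 1 measured gene of a function list, placed by its mean level over the 3 wild-type arrays (log2, x axis), with a red bar at the list's median and a dashed line at the limit of 4.66. Translation factors and immediate early genes have the highest medians (13.29 and 12.59), and imprinted growth genes and microRNA genes have medians under the limit (4.62 and 4.22).

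Chromatin regulators mutated in clonal hematopoiesis and leukemia were measured throughout. All 26 genes of DNA methylation and Polycomb were above the limit, with a median percentile of 86.8. Dnmt1, which maintains methylation after replication, gave 13.95, 13.90 and 13.91. The de novo enzymes Dnmt3a and Dnmt3b were at 8.29 ± 0.01 and 8.82 ± 0.06, and Tet2 at 9.14 ± 0.04 (SD, n = 3). Ezh2, Eed and Suz12, the core of Polycomb complex PRC2, were at 11.12 ± 0.04, 10.86 ± 0.05 and 10.79 ± 0.05 (SD, n = 3), with overlapping arrays for Eed and Suz12. Kdm6b, which removes their mark, was the highest at 14.66 ± 0.02, and Cbx8 the lowest at 4.84 ± 0.01 (SD, n = 3).

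Of 22 DNA repair genes 21 were above the limit (median percentile 82.8), from Rad50 at 11.30 ± 0.01 to Lig4, which joins double-strand breaks, at 4.52, 4.51 and 4.53, not above it. Of 20 autophagy and lysosome genes 19 were (81.5), with Laptm5 highest at 13.91 ± 0.10 (SD, n = 3). Atg7 and Atg5, needed for autophagy in HSCs, were at 6.87 ± 0.03 and 6.82 ± 0.06 (SD, n = 3) and overlapped. Of 15 cholesterol and fatty acid genes 14 were (74.5), and Scd1 at 4.36 ± 0.06 was not (SD, n = 3).

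Imprinted growth genes, expressed from 1 parental copy and tied to HSC quiescence, ranked with genes at large. Of 14 measured, 7 were above the limit, with a median percentile of 47.1. Gnas was at 9.82 ± 0.02 and Kcnq1ot1 at 8.06 ± 0.05 (SD, n = 3). Igf2 gave 3.85 on each array, Mest was at 3.67 ± 0.01 and Peg3 at 3.50 ± 0.05 (SD, n = 3). H19 and Meg3 were not analysed here.

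Noncoding RNA genes reached the top of the scale. Rn7sk, whose RNA holds back transcription elongation, gave 19.93 on each array, and the nuclear RNA Malat1 18.48 on each. Rmrp and Rpph1, the RNA parts of the nucleases RNase MRP and RNase P, were at 18.19 ± 0.08 and 16.97 ± 0.22 (SD, n = 3). Terc, the telomerase RNA, was lower at 5.39 ± 0.06 (SD, n = 3). Over all 3169 long noncoding RNA genes 20.5% were above the limit, with a median percentile of 29.4.

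Other RNA classes differed widely. All 62 ribosomal RNA genes were above the limit, as were 67.8% of 914 snRNA genes and 66.1% of 955 snoRNA genes. Of 4274 pseudogenes 58.2% were, and 217 of them had a level over 16, beside 44 of the 19043 protein-coding genes. Of the 40 ribosomal protein genes, 6 were read from a cluster on another chromosome than the gene. The median of the 40 was 11.38, beside 13.59 for the 198 ribosomal protein pseudogenes, of which Rps23-ps gave 19.80 on each array. Such copies are near-identical to their parent genes, so their signal cannot be assigned to a copy.

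MicroRNAs silence transcripts that pair with their seed, bases 2 to 8. The array reports a signal for the gene or its hairpin and not the mature RNA. Of 34 measured microRNA genes of hematopoiesis 15 were above the limit, beside 48.2% of all 600 microRNA genes. The 8 brightest are shown with both mature sequences from RefSeq, since the signal does not tell the arms apart. Capitals mark the seed. Mir23a, Mir27a and Mir24-2 are encoded together on chromosome 8 (GRCm38.p6), with mature sequences from base 84208527 to base 84208896.
mmu-miR-27a-3p: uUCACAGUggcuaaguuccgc
mmu-miR-27a-5p: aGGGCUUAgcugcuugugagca
mmu-miR-23a-3p: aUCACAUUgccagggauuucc
mmu-miR-23a-5p: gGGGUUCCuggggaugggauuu
mmu-miR-24-2-5p: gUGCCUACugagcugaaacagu
mmu-miR-24-3p: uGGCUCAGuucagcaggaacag
mmu-miR-142a-3p: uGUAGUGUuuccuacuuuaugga
mmu-miR-142a-5p: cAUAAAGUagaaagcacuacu
mmu-miR-155-3p: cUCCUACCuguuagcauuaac
mmu-miR-155-5p: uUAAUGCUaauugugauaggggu
mmu-let-7d-3p: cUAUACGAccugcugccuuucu
mmu-let-7d-5p: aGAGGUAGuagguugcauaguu
mmu-miR-29b-1-5p: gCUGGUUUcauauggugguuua
mmu-miR-29b-3p: uAGCACCAuuugaaaucaguguu
mmu-miR-15a-3p: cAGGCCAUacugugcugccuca
mmu-miR-15a-5p: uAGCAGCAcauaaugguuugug

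The 3 genes of the chromosome 8 cluster headed the list. Mir27a gave 15.12, 15.10 and 15.03, Mir23a 13.03, 13.08 and 13.14, and Mir24-2 11.22, 11.67 and 11.61. Their arrays did not overlap. The seeds of miR-27a-3p and miR-23a-3p, UCACAGU and UCACAUU, are not the same, so these do not form a seed family.

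Mir142, a microRNA gene of all blood cells, gave 10.38, 10.64 and 10.71, and Mir155, induced in activated immune cells and progenitors, 9.89, 9.98 and 9.79. Mirlet7d gave 9.01, 9.15 and 8.85. It shares the seed GAGGUAG with 6 other let-7 forms of the list. Of the other let-7 genes Mirlet7f-1 at 5.83 ± 0.12 (SD, n = 3) was above the limit, and Mirlet7b, Mirlet7a-1, Mirlet7a-2, Mirlet7e, Mirlet7c-1, Mirlet7c-2, Mirlet7i and Mirlet7f-2 were not. Mir29b-1 at 6.60 ± 0.19 and Mir29a at 6.25 ± 0.34 share the seed AGCACCA and overlapped (SD, n = 3). Mir15a was at 6.52 ± 0.17 (SD, n = 3).

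Several microRNA genes known from HSCs were at the lower end. Mir125b-2 was at 3.85 ± 0.15, Mir125b-1 at 3.21 ± 0.11, Mir130a at 3.60 ± 0.12, Mir99a at 2.87 ± 0.08 and Mir10b at 2.87 ± 0.25 (SD, n = 3 for each). The lymphocyte microRNA gene Mir150 was at 3.11 ± 0.02 (SD, n = 3). A low signal of the gene does not show that its mature RNA was low.

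By chromosome, the share of protein-coding genes other than receptors above the limit ran from 54.7% on chromosome 6 to 63.3% on chromosome 17 among the autosomes. It was 46.7% of 753 genes on the X chromosome, and 46 of 59 on the Y chromosome, where many genes are near-identical copies. Genes of the Y chromosome with an X partner were above the limit on every array. Eif2s3y gave 8.82, 8.96 and 8.91, Uty 8.68, 8.72 and 8.64, and Kdm5d 7.69, 7.82 and 7.77. Xist, the RNA that silences an X chromosome in females, gave 4.20, 4.14 and 4.08, not above the limit. The sex of the mice is not in the labels.

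Outside the symbol families, the 25 brightest protein-coding genes joined housekeeping genes with the immediate early genes named above. A few were genes of stem and progenitor cells. Among these few were Adgrg1, which encodes the adhesion receptor GPR56 of HSCs, at 18.43, 18.48 and 18.46, and Mpo. Cd69, an early activation antigen gene, gave 16.93, 16.88 and 16.97. Serinc3 gave 19.06 and the MHC class I light chain gene B2m 18.57 on each array. The mitochondrial genes COX1 and ND3 were at 18.81 ± 0.14 and 18.12 ± 0.08, the cofilin gene Cfl1 at 17.02 ± 0.02 and Actb at 16.99 ± 0.03 (SD, n = 3). The tubulin genes Tubb5, Tuba1a and Tuba1c, the predicted gene Gm15501 and Hnrnpa3 completed the set with genes already named; the clusters used for Tuba1c and Hnrnpa3 lie on another chromosome than the gene.

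A pair of broad families lay at different ranks. Of 359 genes named Zfp 294 were above the limit, the highest being Zfp36l2, needed for definitive hematopoiesis, at 17.61, 17.77 and 17.72. Of 362 solute carrier genes 180 were (49.7%), a share close to the 54.4% of protein-coding genes. The highest was the mitochondrial ADP/ATP carrier gene Slc25a5 at 16.31 ± 0.09 (SD, n = 3). Of 37 histone genes 32 were above the limit, with Hist1h2aj at 19.27 ± 0.01 (SD, n = 3), which has many near-identical copies.

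Array-to-array spread was largest for the following genes among those that code for protein. Above the limit 275 genes of all classes had an SD over 0.3, with a largest SD of 0.72. The 12 protein-coding genes with the largest SD were Gm20925, Vmn1r159, Tlr6, Olfr141, Leap2, Cd83, Vmn1r142, Defb25, Ccr7, Gm2411, Prol1 and Gm21828, with SDs of 0.362 to 0.507. Their percentiles lay between 49.4 (Tlr6) and 76.0 (Gm20925). Gm20925 gave 7.10, 8.11 and 7.52, and Tlr6 4.78, 4.26 and 5.20. Ccr7, a homing receptor gene of lymphocytes and dendritic cells, gave 6.42, 6.41 and 5.77, lower on array 3. No array was the extreme one for all 12.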

How the data were processed

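Biotin-labelled cRNA was made from 6 ug of total RNA per array by an Affymetrix protocol, per the labels. The authors deposited 1 table of values for 65956 transcript clusters on 6 arrays, taken here as log2 signals, with 2 decimals and a range of 2.04 to 19.93 on the wild-type arrays. The submitters' processing notes name MAS5 with no version or role. No source used here states the log base, the background correction or the scaling between arrays, and the deposited values carry no detection calls. They were used unchanged: the medians of the 3 wild-type arrays were 4.40 to 4.44, so no further scaling was applied.

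Gene names came from the platform annotation, with 827 clusters updated through the RefSeq gene table. Clusters with several symbols (2146) or none (33206) were not named. Of 355 genes with several clusters, 103 had clusters over 2 apart on the log2 scale (median gap 0.727), and the brightest was used. For 63 genes that cluster lies on another chromosome than the gene, and these values are less certain. Members with older names were matched through the same table. Promoters were taken from the RefSeq promoter table (GRCm38.p6) for 15432 of 19043 protein-coding genes, using the first entry of the 2528 genes with several.

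The 14 lineage lists, 26 function lists and 10 symbol families were chosen with earlier results of these data known. The genes named were the 5 markers, Cdk19, Cdkn1a, the 25 brightest protein-coding genes outside the families, the 12 with the largest SD, up to 6 highest and 4 lowest of each list, 2 highest and 1 lowest of each family, and the 8 brightest microRNA genes. Chosen after their values were seen were Adgre1, Alb, Bbc3, Bcl2l1, Camp, Cdkn1b, Cxcl12, Cxcl2, Dnajb1, Dnmt3a, Dnmt3b, Fas, Foxo1, Foxo3, Fzd4, Gata2, Gbp2, Gp5, Gp9, Hif1a, Hlf, Hsph1, Igll1, Irf7, Itga4, Itgb1, Kdr, Kitl, Lcn2, Ltf, Ngp, Oas1a, Oas2, Ppp1r15a, Pmaip1, Rsad2, S100a8, S100a9, Tal1, Tet2, Tgfbr1, Tgfbr2, Tnf, Vpreb3 and the other microRNA genes.

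Python 3.11.15, pandas 2.3.3, numpy 2.4.6 and matplotlib 3.10.9 were used, and the counting steps were tested on simulated data. The labels call the arrays biological replicates but do not say which or how many animals each came from, so the SDs measure the spread between these samples. Alternatives were another limit, gene level, ranking, scaling and promoter window, and leaving out each array.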

Additional observations from a re-analysis of the deposited data

How the results depend on the processing

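The count of genes above the limit was 17323 with the 90th percentile of the receptor genes as the limit, 13266 with the 99th and 14084 with vomeronasal and taste receptors alone, beside 15645. Without 1 array it was 15564 to 15647. The median SD of 0.067 became 0.072 with arrays shifted to a common median and 0.049 to 0.057 without 1 array. An SD from fewer arrays has a lower median by itself, so that fall does not show tighter data. Ranked among protein-coding genes alone, the median percentile of HSC surface markers was 63.7 and that of multipotent progenitor markers 89.1, and over 38 lists the shift lay between -4.59 and 2.42. Without 1 array no list's median percentile shifted by more than 1.21, and with quantile normalization none by more than 0.038. The CpG ratio of the brightest quintile was 0.833 with mean levels over clusters, 0.833 to 0.834 without 1 array, 0.801 over the 250 bases before the start alone and 0.844 among genes above the limit alone. Leaving out clusters on another chromosome than the gene, an alternative chosen after seeing the data, lowered the count above the limit by 18. Protein length was not run because no protein table was used here, and gene span took its place. No paired analysis was possible because 1 group is described and no result comes from a test. Signal near the ceiling and near the level of the receptor genes limits what can be ranked.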

Other observations

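Part of the signal of these cells lay in clusters that carry no gene name. Of the 33206 clusters with no symbol 12234 were above the chemosensory limit (36.8%), and 1155 had a level over 12. Of the 2146 clusters with several symbols 1341 were above it (62.5%), beside 52.1% of the clusters with 1 symbol. Among genes above the limit, array 3 gave the highest of the 3 values for 5310 genes and array 1 the lowest for 5843.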
